A study of Mus musculus with 8 samples.

Results

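The p53 pathway and target genes were followed here in the dental epithelium of Bmi1 null mice. The set was a list of 33 mouse genes, made of Trp53 itself, its regulators and genes that p53 is known to switch on. It was taken from the 17178 genes with a symbol on the array by matching each probe's accession to a mouse gene table. All 33 genes had at least 1 probe, with 52 of 41174 noncontrol probes in all. A gene was tested if 4 or more of the 8 arrays showed a probe of it well above background, and 32 of the 33 genes were. The exception was Eda2r, a receptor of the tumour necrosis factor receptor family, which exceeded background clearly on none of the 8 arrays.

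The study measured RNA on single-colour arrays in the epithelium of the mouse incisor, a tooth that grows throughout life, from which the mesenchyme had been removed by mechanical separation. The groups were 4 wild-type (WT) samples and 4 with the genotype Bmi1-/- (Bmi1 null, or null), all on a mixed genetic background. Age and sex are not given in the labels, nor is it said whether each sample came from a separate animal, so the spread behind each p-value is that among these samples and may be partly technical. The null genotype is that of the whole animal, so Bmi1 is missing from the other tissues as well as from the epithelium. All 5 epithelial markers examined were well above background on all 8 arrays. So were 8 mesenchymal, 5 endothelial and 4 erythroid markers, so these markers alone do not tell the epithelium from other tissues.

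p53 is a transcription factor that is kept scarce by the ubiquitin ligase Mdm2 and its partner Mdm4. When DNA is damaged, or when the p19Arf product of the Cdkn2a locus binds Mdm2, p53 accumulates and switches on genes for cell cycle arrest, DNA repair and cell death, together with genes that shut the response down again. Bmi1, a subunit of Polycomb repressive complex 1, is known for keeping Cdkn2a silent. In the incisor, dividing epithelial cells supply the ameloblasts that secrete enamel.

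Levels are given as log2 of the processed signal relative to the 75th percentile of the same array, so 0 is a bright probe and each unit is a doubling. Log2 differences (the log2 of the fold change) are Bmi1 null minus WT, with the standard error (SE) from limma, a linear model with a shared estimate of the spread. Adjusted p-values are from limma with Benjamini-Hochberg adjustment over all 22345 genes tested, two-sided, and a gene was called at a false discovery rate (FDR) of 5%. Of these 22345, 13861 were genes with a symbol, and the rest were probes without a symbol, each counted as 1 gene. Shares and medians over all genes tested, and the classes of brightness below, include both kinds. In this bulk tissue, fewer cells of a type and less RNA per cell cannot be told apart. The share of probes well above background averaged 71.4% ± 2.10 for WT and 66.4% ± 1.64 for null arrays (SD over 4 arrays each, exact permutation p = 0.0286, the smallest that 4 against 4 arrays allow), and the arrays came from 2 slides with 2 samples of each genotype. The title and the file of WT replicate 1 carry different numbers, and its values are used as the labels link them. Bmi1 RNA, the check of the genotype, had a log2 difference of -2.82 ± 0.37 (SE, limma adjusted p = 0.0305). The call was lost in 12 of 22 other settings with limma adjusted p up to 0.754, while the value stayed between -3.71 and -2.37. The other Bmi1 probe, well above background on 2 of 4 null arrays, gave -4.60 ± 0.71 (SE). The sources used here do not say whether these probes lie inside the deleted part.

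No p53 pathway gene passed 5% FDR between Bmi1 null and WT epithelium, and none passed 10% in the fit reported here. Over the other settings the smallest limma adjusted p of Pmaip1 was 0.0983, which is under 10%. In simulated data with 4 against 4 arrays, 5% FDR recovered 0 of 50 genes with a log2 change of 0.5 and 13 of 50 with a change of 1. A change of 0.5 could thus hardly be called with this design. Over all genes tested, 11 passed 5% FDR (0.0492%). At an unadjusted limma p under 0.05, 6 of the 32 genes were higher in Bmi1 null samples (18.8%, against 4.21% of all genes tested) and none was lower (against 2.16%). These were Pmaip1, Phlda3, Zmat3 and Perp among the death genes and Ccng1 and Rps27l among the feedback genes. The 4 Bmi1 null arrays lay above all 4 WT arrays for Pmaip1, Phlda3, Perp and Ccng1 (12.5% of the 32, against 1.82% of all genes tested), and below them for 1 gene, Cd80 (against 1.26%). These counts depended on the processing. With quantile normalization 3 genes had an unadjusted p under 0.05 and 1 had groups that did not overlap, with array weights 14 had such a p, and with the deposited value table or cyclic loess normalization 2 had groups that did not overlap. No share over all genes is given for these settings, so their counts cannot be set against the shares above. Of the 32 genes, 22 had a positive and 10 a negative log2 difference (68.8% positive, against 51.4% of all genes tested), and the median was 0.11, against 0.01 over all genes.

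The median of the 32 genes' deviations from their WT means, array by array, was 0.00, 0.10, -0.01 and -0.08 in the WT arrays and -0.02, 0.07, 0.17 and 0.24 in the null arrays, in the order of replicates 1 to 4 that is kept throughout. Bmi1 null replicates 3 and 4 stood above every WT array, and Bmi1 null replicates 1 and 2 lay within the WT range. The same median over all genes tested was -0.02, 0.09, -0.04 and 0.00 in the WT arrays and -0.10, 0.07, 0.08 and 0.02 in the null arrays. Relative to it, the p53 pathway genes stood at 0.01, 0.01, 0.03 and -0.07 in the WT arrays and at 0.08, 0.01, 0.09 and 0.23 in the null arrays, so that Bmi1 null replicates 1, 3 and 4 were above every WT array and replicate 2 was not. Each WT array is part of the WT means it is set against, while the null arrays are not. A null array therefore stands above every WT array more easily than if all were set against separate samples. The counts moved with single arrays. Without Bmi1 null replicate 3, 3 genes had an unadjusted p under 0.05. Without Bmi1 null replicate 4, 9 genes had groups that did not overlap and the median was 0.07, and without WT replicate 2 the median was 0.22. Groups of fewer arrays part more easily, and no share over all genes is given for these fits. Their counts of genes without overlap therefore cannot be set against the count from all arrays. The members were picked with earlier results of these samples known, so these counts are a description and no test of the set.

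**Figure D1:**
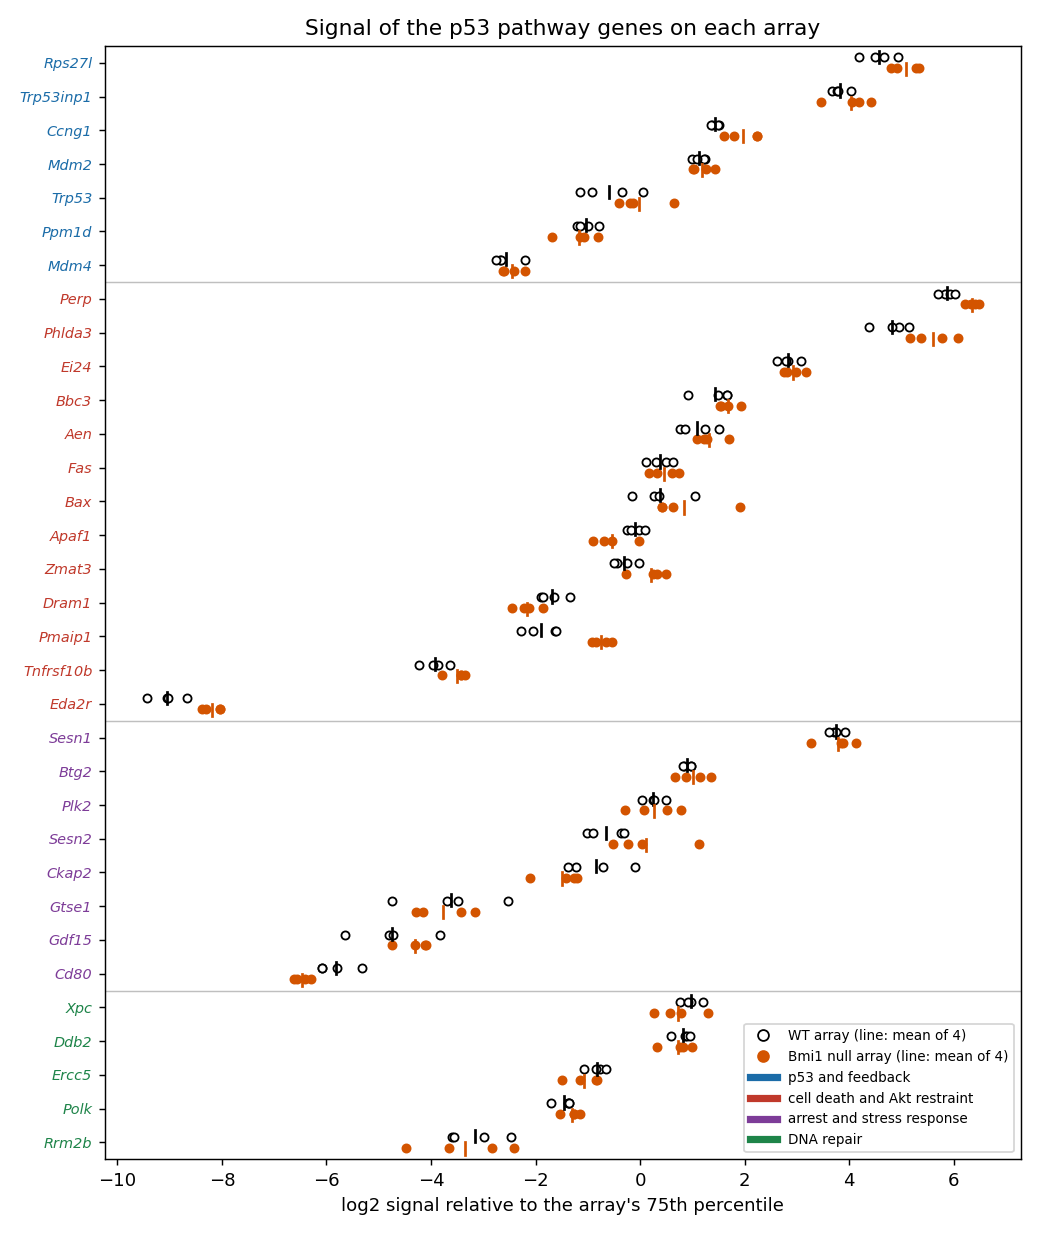
Signal of the 33 p53 pathway genes on each array, on the x axis as log2 units from the 75th percentile of the array, with 4 WT arrays as open circles, 4 Bmi1 null arrays as filled circles and group means as vertical lines. Genes are ordered by role and, within a role, by the WT mean of their probe, and probes of different genes are not comparable in level. Pmaip1, Phlda3, Perp and Ccng1 show all Bmi1 null arrays above all WT arrays, and Cd80 the reverse.

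Among bright probes the fold changes were larger with greater brightness over all genes tested, and 3 of the 6 genes lay in that range. Among the 179 tested genes with a mean level above 6, the median log2 difference was 0.57 and 98.3% were positive. Among the 308 genes between 5 and 6 it was 0.29, and among the 652 genes between 4 and 5 it was 0.14. It was 0.06 among the 3008 genes between 2 and 4, and 0.00 among the 4663 genes between 0 and 2. Dimmer probes showed no such pattern, with 0.03 for the 4189 genes between -6 and -4 and -0.06 for the 3966 genes between -4 and -2. The 991 genes below -6, with Cd80 among them, had a median of -0.17, and 40.2% were positive. An unadjusted p under 0.05 with a higher level in Bmi1 null samples was met by 52.0% of genes above 6, 22.4% of those from 5 to 6, 12.1% of those from 4 to 5 and 3.2% of those from 0 to 2. Perp lay in the first of these classes, Phlda3 in the second, Rps27l in the third and Ccng1 in the fourth. Zmat3 and Pmaip1 lay between -2 and 0, where the median was -0.04 and 3.0% of the 4389 genes met that rule. Why bright probes had higher values in Bmi1 null samples was not tested.

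**Figure D2:**
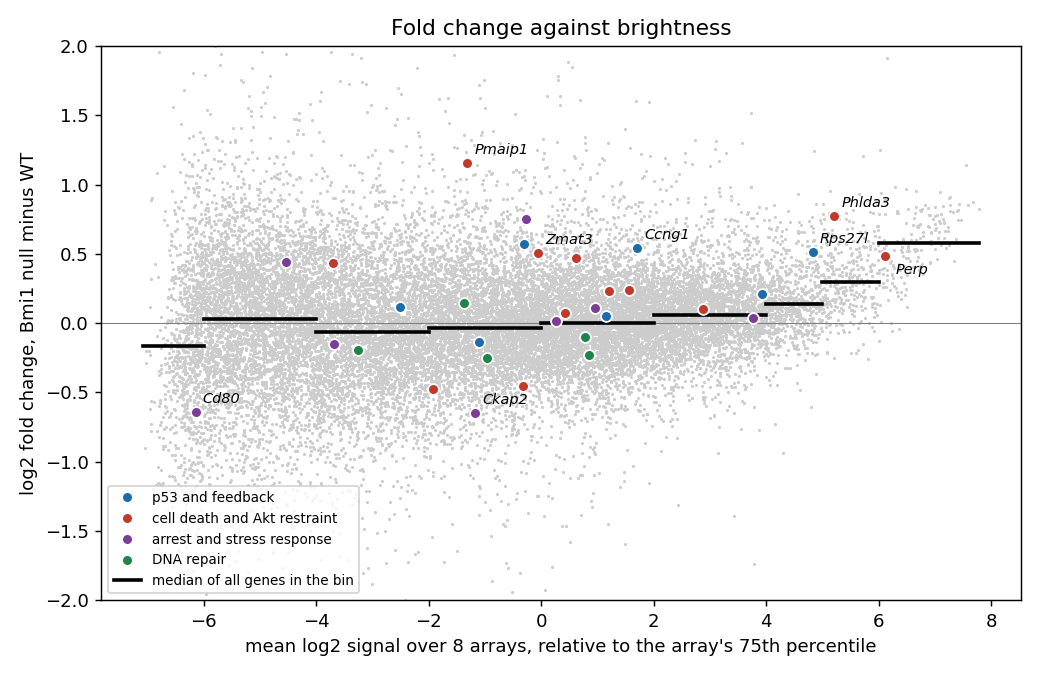
Log2 fold change (Bmi1 null minus WT) on the y axis against the mean log2 signal over 8 arrays on the x axis, with all tested genes in grey, the 32 p53 pathway genes coloured by role and black lines for the median of all genes in each class of brightness. The 76 genes beyond 2 on the y axis in either direction are not drawn. Perp lies below the median of its class (0.57), Phlda3 and Rps27l lie above theirs (0.29 and 0.14), and Pmaip1 and Ccng1 lie where the class medians are near 0.

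The recognition sequence of p53 is built from a degenerate decamer, 3 purines, C, 2 of A or T, G and 3 pyrimidines, which reads the same on both strands. RefSeq promoter windows of the mouse build GRCm38.p6, from 250 bases before to 50 bases after a gene's start, were found for 25 of the 33 genes, and some genes have several starts. The decamer was present in the windows of 12 of these 25 genes (48.0%), against 2582 of 27025 genes in the whole table (9.55%). Per window it was present in 13 of 34, against 8.36% of all 32851 windows. No window of the set held 2 decamers within 13 bases of each other, an arrangement present in 24 of all windows. The set was picked as known p53 targets, so this share is a description of it. The 5 stretches that follow are shown because they belong to Trp53, to its feedback gene Mdm2, to the death gene Bax, and to Ccng1 and Rps27l, the genes with a window holding the decamer whose unadjusted p was under 0.05. Capitals mark the decamer and 20 bases are given on either side, 5′ to 3′ on the gene's strand.
Ccng1, chr11:40755442-40755491, minus strand: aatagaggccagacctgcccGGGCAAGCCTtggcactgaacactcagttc
Rps27l, chr9:66946183-66946335, plus strand: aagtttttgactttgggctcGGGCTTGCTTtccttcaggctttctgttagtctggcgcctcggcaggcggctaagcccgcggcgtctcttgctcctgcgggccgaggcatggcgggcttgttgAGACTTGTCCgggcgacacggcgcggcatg
Bax, chr7:45467070-45467119, minus strand: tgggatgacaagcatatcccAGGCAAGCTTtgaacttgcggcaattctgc
Mdm2, chr10:117710915-117710964, minus strand: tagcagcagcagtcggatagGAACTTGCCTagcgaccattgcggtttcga
Trp53, chr11:69580264-69580313, plus strand: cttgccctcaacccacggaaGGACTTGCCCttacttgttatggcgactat

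The decamer began 185 bases before the start of Ccng1, 201 before that of Bax, 186 before that of Mdm2 and 75 before that of Trp53. Rps27l held 2, at 210 and 107 bases before the later of its 2 listed starts, which places them 117 and 220 bases after the earlier start, inside the gene. Phlda3 had a window with no match, and no window for Pmaip1, Perp or Zmat3 was in the table. The 12 tested genes with the decamer had a median log2 difference of 0.12, with 9 positive, and the 12 tested genes with a window but no decamer had a median of 0.09, with 8 positive. A match is a run of letters in a window and not a site shown to bind p53, and the arrays did not measure binding.

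The regulators of p53 and its feedback genes comprised 7 members, all tested, of which 6 had a positive log2 difference, with a median of 0.21. Trp53 stood at -1.15, 0.06, -0.35 and -0.93 in the WT arrays and at -0.41, -0.20, 0.65 and -0.13 in the null arrays. The groups overlapped, Bmi1 null replicate 3 being the highest array and WT replicate 1 the lowest. This gave a log2 difference of 0.57 ± 0.32 (SE, limma adjusted p = 0.789), and the other Trp53 probe gave 0.07 ± 0.17. Trp53 RNA was thus not called, and the array does not measure p53 protein, which is controlled mainly by its stability.

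Mdm2, the ubiquitin ligase that marks p53 for degradation and is itself a p53 target, had levels of 0.996, 1.24, 1.22 and 1.09 in the WT arrays and 1.03, 1.01, 1.26 and 1.43 in the null arrays. The groups overlapped, with Bmi1 null replicate 4 the highest array and WT replicate 1 the lowest. Its log2 difference was 0.05 ± 0.17 (SE, 95% interval -0.32 to 0.42, limma adjusted p = 0.954), and the other, dimmer probe gave -0.16 ± 0.46. Mdm4, the partner of Mdm2 that blocks the activation domain of p53, averaged -2.57 ± 0.25 in WT and -2.46 ± 0.20 in null samples (SD over 4 arrays each), with a log2 difference of 0.11 ± 0.23 (SE). Its other probes gave 0.08 ± 0.29 and -0.57 ± 0.29, so the 3 probes differed in sign. Ppm1d, which encodes the phosphatase Wip1 that dampens p53 signalling, had the only negative value of this group, -0.14 ± 0.23 (SE).

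Ccng1, which encodes cyclin G1 and feeds back on Mdm2, stood at 1.51, 1.37, 1.49 and 1.36 in the WT arrays and at 1.80, 1.60, 2.23 and 2.24 in the null arrays. All Bmi1 null arrays were above all WT arrays, with replicates 3 and 4 of the null group, both on slide 2, the highest. The log2 difference was 0.54 ± 0.19 (SE), a 1.45-fold difference, with a limma adjusted p of 0.766. It was 0.27 within slide 1 and 0.81 within slide 2. The other Ccng1 probe gave 0.54 ± 0.21, so both probes had the same size and sign. The decamer shown above belongs to this gene.

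Rps27l, a ribosomal protein paralogue that binds Mdm2, had levels of 4.66, 4.93, 4.20 and 4.49 in the WT arrays and 4.91, 5.34, 5.28 and 4.80 in the null arrays. The groups overlapped, since WT replicate 2 exceeded Bmi1 null replicates 1 and 4. Null minus WT was 0.51 ± 0.20 (SE, limma adjusted p = 0.770), in a class of brightness with a median of 0.14, and it was 0.30 after quantile normalization. Cross-hybridisation with its close paralogue Rps27 was not tested. Trp53inp1, a nuclear protein that promotes p53 phosphorylation, had 0.21 ± 0.21 (SE) on the probe that represents it and 0.63 ± 0.23 on the other (unadjusted limma p under 0.05).

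The cell death genes, with the Akt inhibitor Phlda3 among them, comprised 13 members, of which 12 were tested. Of these, 10 had a positive log2 difference, with a median of 0.34. Pmaip1, which encodes the BH3-only protein Noxa that neutralises the survival factor Mcl1, stood at -1.63, -1.61, -2.28 and -2.06 in the WT arrays and at -0.85, -0.66, -0.91 and -0.54 in the null arrays. Every Bmi1 null array was above every WT array, and the gap between the nearest arrays was wider than the range within the null group. The log2 difference was 1.16 ± 0.23 (SE, 95% interval 0.66 to 1.66), a 2.23-fold difference. It ranked 31 of 22345 genes by p and missed 5% FDR (limma adjusted p = 0.273). The value was 1.09 within slide 1 and 1.22 within slide 2, and from 1.03 to 1.25 over 22 other settings, in all of which the unadjusted limma p was under 0.05 and in none of which the gene was called. Pmaip1 has a single probe on this array.

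Phlda3, which competes with Akt for membrane lipids and so restrains survival signalling, stood at 5.14, 4.38, 4.95 and 4.82 in the WT arrays and at 6.08, 5.16, 5.78 and 5.37 in the null arrays. The groups did not overlap, although WT replicate 1 and Bmi1 null replicate 2 were almost level. The difference was 0.78 ± 0.24 (SE, limma adjusted p = 0.7002). Its class of brightness had a median of 0.29, and the value was 0.47 after quantile normalization and 0.56 after cyclic loess normalization, each of which removes a trend with brightness.

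Perp, a desmosomal membrane protein of stratified epithelia and a target of both p53 and p63, stood at 5.84, 5.92, 5.70 and 6.02 in the WT arrays and at 6.32, 6.21, 6.48 and 6.41 in the null arrays. The groups did not overlap and the arrays within each group lay close together. The difference was 0.49 ± 0.14 (SE, limma adjusted p = 0.681), below the median of its class of brightness (0.57). It was 0.04 after quantile and 0.22 after cyclic loess normalization, and 0.01 in the authors' deposited value table, whose normalization is not known. All 5 epithelial markers (Krt14, Krt5, Cdh1, Trp63 and Epcam) had positive log2 differences, 3 of them at an unadjusted limma p under 0.05, and their summed linear level was 134 to 192 times the 75th percentile in WT and 233 to 398 times in null samples. Of 6 tested ameloblast markers 5 were positive, all 5 at an unadjusted limma p under 0.05. Their summed level was 173 to 238 in WT and 338 to 500 in null samples. The sums were carried by Krt14 and Krt5 and by the ameloblast genes Ambn and Amelx, which all lay in the brightest class (median 0.57) and had log2 differences of 0.97, 0.81, 0.95 and 0.94. Larger log2 differences were those of the ameloblast genes Odam, 3.36 ± 1.25, and Klk4, 2.62 ± 1.09 (SE, limma adjusted p = 0.770 for each). Both had overlapping groups and lay in the class from 2 to 4, where the median was 0.06. The negative marker was Mmp20, at -0.05 ± 0.38 (SE). The part of these cell types in the values of Perp and Phlda3 was not tested.

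Zmat3, an RNA-binding zinc finger protein that p53 induces, stood at -0.44, -0.24, -0.02 and -0.50 in the WT arrays and at 0.50, -0.27, 0.24 and 0.33 in the null arrays. Bmi1 null replicate 2 lay within the WT range and the other 3 above it. Null minus WT was 0.50 ± 0.22 (SE, limma adjusted p = 0.772), and it was nearly the same after quantile (0.50) and cyclic loess (0.54) normalization. Bax, which permeabilises the mitochondrial outer membrane, stood at -0.16, 0.26, 0.36 and 1.06 in the WT arrays and at 1.90, 0.43, 0.43 and 0.64 in the null arrays. The log2 difference of 0.47 ± 0.36 (SE, limma adjusted p = 0.814) rested on Bmi1 null replicate 1, without which it was 0.12.

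Bbc3, which encodes the BH3-only protein Puma, had a log2 difference of 0.24 ± 0.21 (SE) and Aen, an apoptosis-enhancing nuclease, 0.23 ± 0.22. The death receptor gene Tnfrsf10b had 0.43 ± 0.25, with 0.38 ± 0.25 and 0.41 ± 0.34 on its other probes. Fas, also a death receptor gene, had 0.07 ± 0.20, and Ei24, an endoplasmic reticulum protein, 0.10 ± 0.16. The remaining genes of this group had negative values. Apaf1, the scaffold of the apoptosome, stood at -0.03, 0.10, -0.25 and -0.18 in the WT arrays and at -0.91, -0.55, -0.70 and -0.02 in the null arrays, so that only Bmi1 null replicate 4 lay within the WT range. Its log2 difference was -0.45 ± 0.22 (SE, limma adjusted p = 0.784), and its other tested probe gave -0.62 ± 0.44. Dram1, a lysosomal protein that links p53 to autophagy, had -0.48 ± 0.23 (SE, limma adjusted p = 0.784). None of these 7 genes had an unadjusted p under 0.05. Eda2r, untested, read -9.05 ± 0.31 in WT and -8.19 ± 0.19 in null samples (SD over 4 arrays each), both below the level at which this array measures, and no fold is given.

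**Figure D3:**
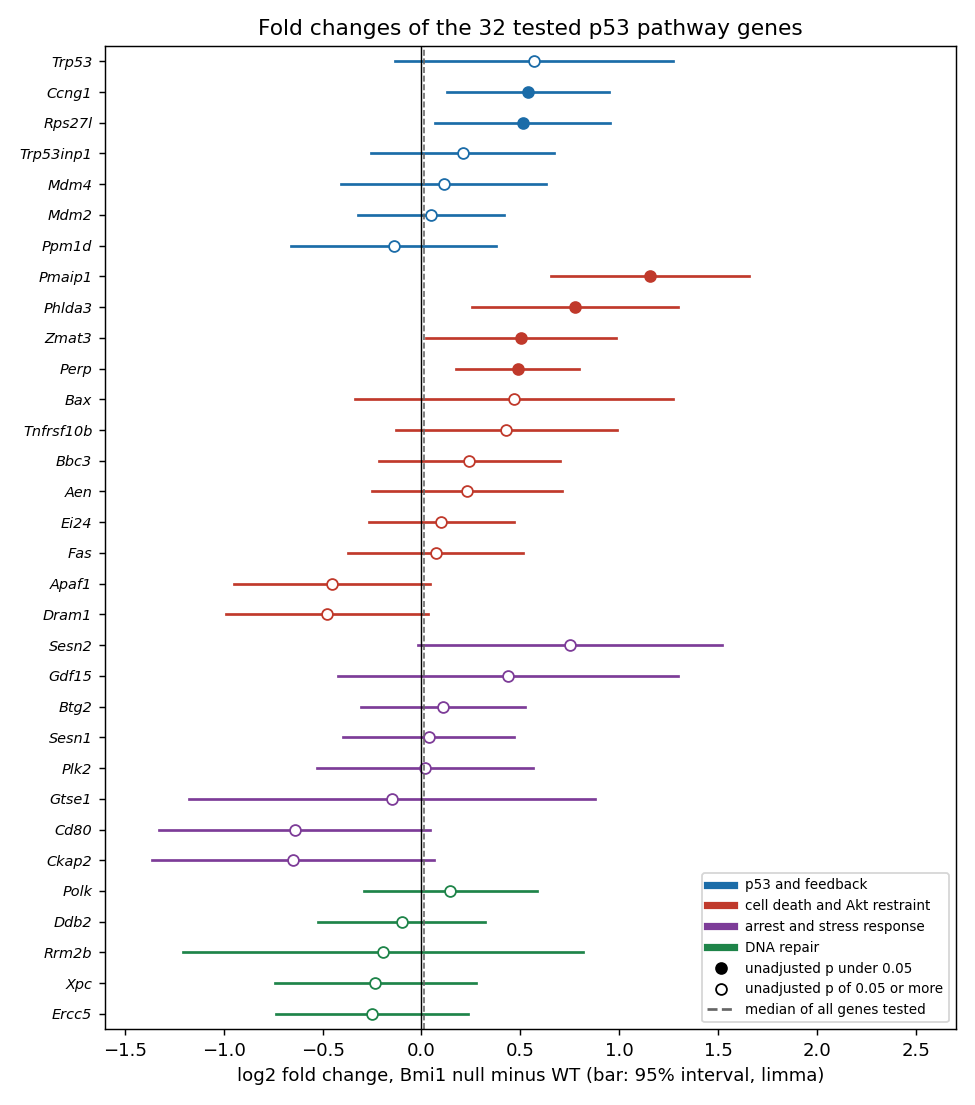
Log2 fold changes (Bmi1 null minus WT) of the 32 tested p53 pathway genes on the x axis with 95% limma intervals as bars, coloured by role, filled where the unadjusted p is under 0.05. The dashed line is the median of all genes tested (0.01). The filled points are Ccng1, Rps27l, Pmaip1, Phlda3, Zmat3 and Perp, all to the right of 0, and none lies in the arrest or repair groups.

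The arrest and stress-response genes comprised 8 members, all tested, with 5 positive and 3 negative values and a median of 0.03. None had an unadjusted p under 0.05. The negative values were those of Ckap2, Cd80 and Gtse1, whose descriptions below name no role in arrest or stress response. The median and the mixed signs of this group therefore do not describe arrest genes alone. Sesn2, a stress-induced inhibitor of mTORC1, stood at -1.01, -0.36, -0.30 and -0.91 in the WT arrays and at 1.14, -0.22, 0.03 and -0.52 in the null arrays. Its log2 difference was 0.75 ± 0.35 (SE, limma adjusted p = 0.784), and the value was 1.41 within slide 1, which holds Bmi1 null replicate 1, and 0.09 within slide 2. Sesn1, of the same family, had 0.04 ± 0.19 on its representing probe and -0.80 ± 0.44 and -0.48 ± 0.28 on the others, and its sign turned in 8 of 22 other settings. Btg2, an antiproliferative cofactor of mRNA deadenylation, had 0.11 ± 0.19, Plk2, a polo-like kinase induced by stress, 0.02 ± 0.25, and Gdf15, a secreted stress cytokine, 0.44 ± 0.39.

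Ckap2, a spindle-associated protein, stood at -0.70, -0.09, -1.23 and -1.39 in the WT arrays and at -2.10, -1.27, -1.42 and -1.21 in the null arrays. The groups overlapped, and WT replicates 1 and 2 alone were above all null arrays. Its log2 difference was -0.65 ± 0.32 (SE, limma adjusted p = 0.786), and the other probe gave -0.89 ± 0.38 (unadjusted limma p under 0.05). Gtse1, a microtubule-binding protein of late cell cycle phases that restrains p53, had -0.15 ± 0.46 (SE). All 8 markers of cycling cells (Mki67, Top2a, Cdk1, Ccnb1, Aurkb, Plk1, Bub1 and Cenpa) had negative log2 differences on their representing probes, none with an unadjusted p under 0.05, and their summed linear level was 18.1 to 40.7 in WT and 16.8 to 22.3 in null samples. The other Bub1 probe gave 0.45 ± 0.34 (SE), while the other tested probes of Ccnb1, Mki67 and Top2a were negative. The part of cycling cells in the values of Ckap2 and Gtse1 was not tested.

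Cd80, a costimulatory protein of antigen-presenting cells, was the only member whose Bmi1 null arrays all lay below the WT arrays. It stood at -5.81, -6.09, -6.08 and -5.32 in the WT arrays and at -6.40, -6.55, -6.61 and -6.29 in the null arrays. It was well above background on all 4 WT arrays and on no Bmi1 null array, so it entered the test only through the WT group and had to differ in that direction. The lowest signal well above background averaged -6.80 in WT and -6.12 in null arrays. A probe this dim was thus harder to detect on the null arrays. On the processed signals Cd80 was 1.19-fold lower in Bmi1 null samples (limma adjusted p of the fit 0.784). For this value each null array counted at its own signal or at its lowest signal well above background, whichever was higher. With normexp background correction the log2 difference of Cd80 was 0.57, the opposite sign, so 1.19-fold is no lower bound across settings. Of 7 tested immune markers 5 had negative values, 3 of them at an unadjusted limma p under 0.05 and 1, the B cell gene Ms4a1, at 5% FDR, and the summed level was 7.32 to 15.6 in WT and 6.69 to 11.3 in null samples. Like Cd80, Ms4a1 was well above background on all 4 WT arrays and on no null array, so it entered the test only through the WT group. The part of immune cells in the value of Cd80 was not tested.

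The DNA repair genes comprised 5 members, all tested, with 1 positive and 4 negative values, a median of -0.19 and no unadjusted p under 0.05. Xpc, which recognises helix distortions in nucleotide excision repair, stood at 0.97, 0.77, 1.20 and 0.92 in the WT arrays and at 1.297, 0.58, 0.27 and 0.79 in the null arrays, which held both the highest and the lowest array. Its log2 difference was -0.23 ± 0.23 (SE, limma adjusted p = 0.840). Ddb2, the damage-binding partner in the same pathway, had -0.10 ± 0.19 (SE), and Ercc5, the endonuclease Xpg that cuts beside the lesion, had -0.25 ± 0.22. Rrm2b, the p53-inducible subunit of ribonucleotide reductase, averaged -3.15 ± 0.53 in WT and -3.35 ± 0.92 in null samples (SD over 4 arrays each), with a log2 difference of -0.19 ± 0.46 (SE). Polk, a translesion DNA polymerase, had the positive value, 0.15 ± 0.20. Their intervals reached from -1.20 to 0.82, the widest being that of Rrm2b, so differences of the size seen for Ccng1 lay within some of them.

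**Figure D4:**
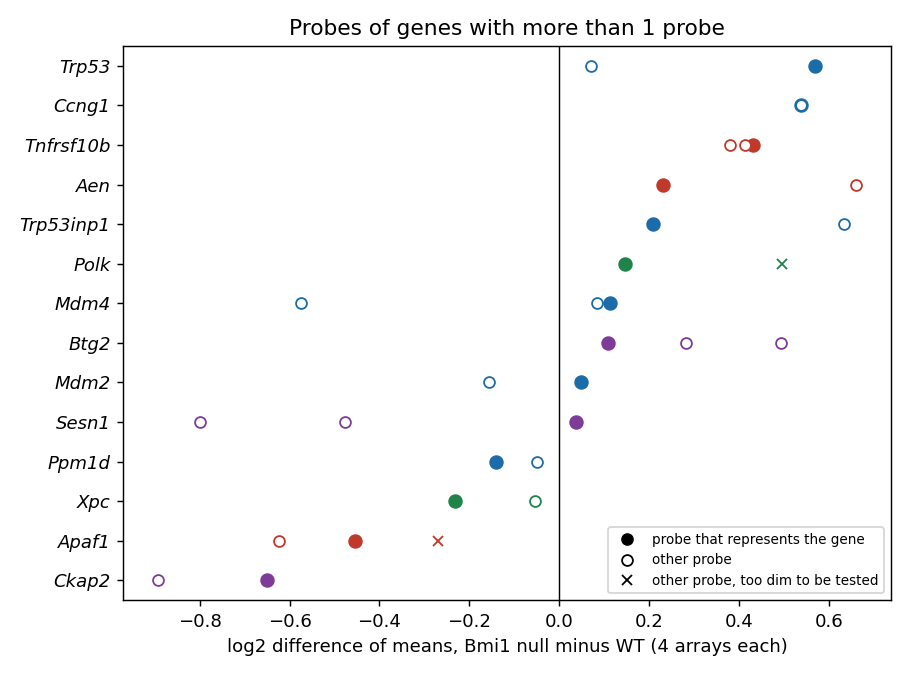
Log2 difference of group means (Bmi1 null minus WT, 4 arrays each) on the x axis for every probe of the 14 p53 pathway genes with more than 1 probe. Filled circles are the probes that represent a gene, open circles other tested probes, and crosses probes too dim to be tested. The probes of Ccng1 and Tnfrsf10b lie close together, while those of Mdm2, Mdm4 and Sesn1 fall on both sides of 0.

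Upstream of p53, Cdkn2a was well above background on no WT array and on all 4 Bmi1 null arrays. On the processed signals its level in null samples was 11.3-fold that of the lowest signal well above background on each WT array (limma adjusted p of the fit 0.00412). Whether its single probe reads the p19Arf transcript, the p16Ink4a transcript or both was not determined. Cdkn2a entered the test through the null group alone and had to differ in that direction, so its p is no separate support for the difference. The call was lost in 4 of 17 other settings (normexp, the common floor, the deposited value table and slide 1 alone, limma adjusted p from 0.242 to 0.754), and Cdkn2a did not enter the fits without a null array. The size depends on how dim signals are treated, and the log2 difference was 1.98 with normexp, 2.58 with the common floor and 2.08 in the deposited value table. All of these are smaller than 11.3-fold, which is therefore no lower bound across settings. It was 1 of 24 listed regulators outside the set, of which 23 were tested, 16 had positive and 7 negative values, 5 had an unadjusted p under 0.05, all higher, and the median was 0.10. Rpl11, a ribosomal protein that can bind Mdm2, had 0.75 ± 0.26 (SE, limma adjusted p = 0.761) at a level of 6.59 in WT, in the brightest class (median 0.57). Trp73, a p53 family member, had 0.94 ± 0.36 (SE, limma adjusted p = 0.770). Rpl5, the partner of Rpl11, had 0.69 ± 0.27 (SE, limma adjusted p = 0.770), also in the brightest class. Cdkn2a apart, no regulator was called at 5% FDR by limma.

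Of 26 further p53 targets outside the set, 24 were tested, 17 had positive and 7 negative values, and the median was 0.18. None was called at 5% FDR by limma, and 2 were higher and none was lower at an unadjusted p under 0.05. Cdkn1a, which encodes the arrest protein p21, had a log2 difference of 0.56 ± 0.28 (SE, limma adjusted p = 0.789), with means of 1.98 ± 0.27 in WT and 2.53 ± 0.59 in null samples (SD over 4 arrays each) and overlapping groups. Dcxr, a carbonyl reductase, had 0.59 ± 0.23 (SE, limma adjusted p = 0.770) and Ephx1, an epoxide hydrolase, 0.74 ± 0.30 (SE, limma adjusted p = 0.770). Gadd45b, a stress-response protein, had 0.35 ± 0.16 (SE, limma adjusted p = 0.784). These lists were also chosen with earlier results known.

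**Figure D5:**
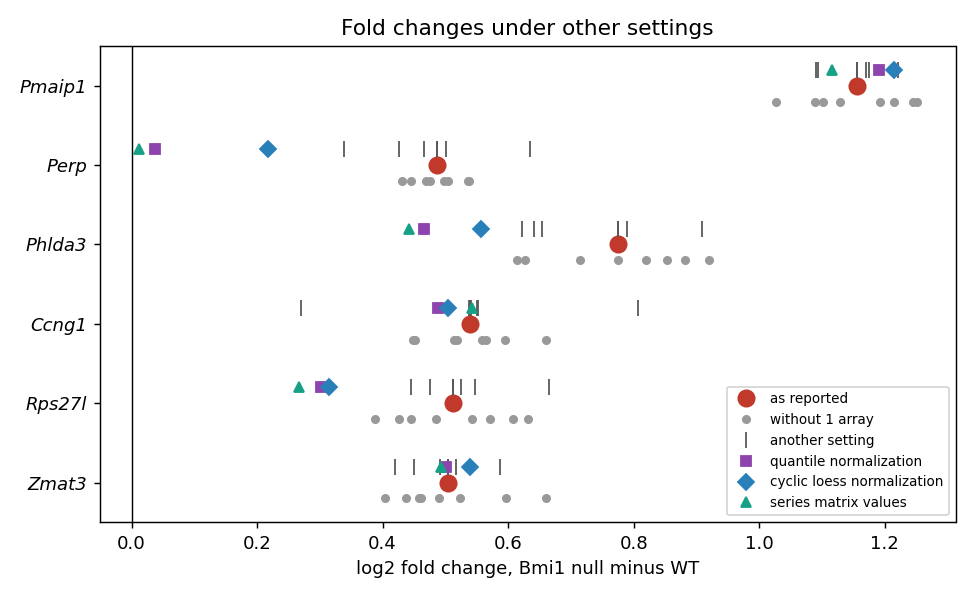
Log2 fold changes (Bmi1 null minus WT) on the x axis of the 6 genes with an unadjusted p under 0.05, as reported (large red circles), without 1 array (grey circles, 8 fits) and under other settings (bars, squares, diamonds and triangles). Pmaip1 stayed between 1.03 and 1.25, while Perp lay at 0.04, 0.22 and 0.01 with quantile normalization, cyclic loess normalization and the series matrix values.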

How the data were processed

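RNA of 8 dental epithelium samples was hybridised to 1 single-colour Agilent array each. Per the file headers, a G2505C scanner read the arrays and Feature Extraction 10.5.1.1 (protocol GE1-v5_95_Feb07, grid build mm9) quantified them. The deposited processed signal used here is a linear intensity, already corrected for background and for spatial trend, but not normalised from array to array. Also deposited are uncorrected intensities (the median signal of a spot and of its surroundings) and indicators of 0 or 1 for each spot. The authors' deposited value table holds log2 values with nearly equal quantiles in every array. No source used here says how it was normalised, and its scale and direction were settled against the scanner signals.

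Control and outlier spots were left out. Processed signals, on the log2 scale, were set relative to the 75th percentile of their array. Probes entered if 4 or more of the 8 arrays showed them well above background, and the brightest entering probe represented its gene. A probe without a gene symbol stood for itself. The genotypes were compared with limma 3.58.1 in R 4.3.3 (lmFit, eBayes with an intensity trend) without covariates. The pipeline was tested on simulated data. The share of probes well above background, the 75th percentile and the lowest signal well above background were compared between genotypes by exact permutation tests.

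The members, gene lists and tests were chosen with earlier results of these data known. All 33 members are accounted for. Array by array, values are given for members with an unadjusted p under 0.05 or with groups that do not overlap and for Trp53 and Mdm2, and also for Bax, Apaf1, Sesn2, Ckap2 and Xpc, which were added after their values were seen. From the lists of other regulators and targets, Cdkn2a, Cdkn1a and the 3 genes of each with the smallest p are named. From the lists of further targets and of epithelial markers, 1 gene each is not reported here and is left out of the counts.

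Each alternative changed 1 choice, except that normexp started from other signals and so changed the input, the background correction and the offset together. Signals were treated by normexp (offset 50, on median signals), quantile normalization, a common floor, or scaling to the median of detected probes. Filtering was dropped or extended to all 8 arrays. Probes of a gene were averaged or tested singly. In the fit, the intensity trend was dropped, arrays were weighted, slides were blocked or taken alone, the FDR was 10%, or 1 array was left out. The deposited value table was tried too. Cyclic loess normalization was added after seeing that fold changes followed brightness. Precision is limited by the 4 arrays in each group.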

Additional observations from a re-analysis of the deposited data

Results flagged for a closer look

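In 68 groups of 4 arrays (the members on each genotype, plus summary values), the highest or lowest array was compared with the rest, a rule by which chance picks about 1 in 20 groups, and 2 groups met it. Bax stood at 1.90 on Bmi1 null replicate 1, while the other 3 null arrays lay between 0.43 and 0.64. Polk stood at -1.70 on WT replicate 3, while the other 3 WT arrays lay between -1.39 and -1.35. The cause was not tested in either case.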

How the results depend on the processing

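No member was called at 5% FDR under any of the alternatives, whose 716 values of single members kept their direction in 672 cases. The number of members with an unadjusted p under 0.05 (6 as reported) was 3 with quantile normalization, 14 with array weights, 3 on each slide alone, and 3 to 8 without 1 array. The median log2 fold change was 0.23 with normexp and 0.073 to 0.22 without 1 array. The number with groups that did not overlap (5) was 1 with quantile normalization, 2 with the deposited value table, 2 with cyclic loess normalization (chosen after seeing the data), 16 on slide 1 and 14 on slide 2, where only 2 arrays of each genotype remain, and 4 to 9 without 1 array. Groups of fewer arrays part more easily, and no share over all genes is given for these settings. The counts from fewer arrays therefore cannot be set against the 5.

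Some members changed sign. Cd80, at -0.64 as reported and dim on every array, was 0.57 with normexp, which also gave -0.016 for Plk2, 0.30 for Gtse1, -0.016 for Sesn1 and 0.19 for Rrm2b. Sesn1 was -0.11 with quantile normalization, -0.10 with cyclic loess and -0.098 with the deposited values, where Plk2 was -0.028. Averaging a gene's probes gave -0.054 for Mdm2, -0.13 for Mdm4 and -0.41 for Sesn1, and other single probes gave -0.16 for Mdm2, -0.57 for Mdm4, and -0.80 and -0.48 for Sesn1. Array weights gave 0.0023 for Ppm1d, -0.030 for Btg2, 0.24 for Gtse1 and 0.13 for Rrm2b. Slide 1 alone gave -0.021 for Mdm2, -0.18 for Fas, -0.25 for Plk2, -0.11 for Sesn1 and -0.025 for Polk, and slide 2 alone -0.048 for Bbc3, -0.0020 for Btg2, 0.044 for Ddb2 and 0.11 for Rrm2b. Without 1 array the values ranged from -0.53 to 0.22 for Gtse1, -0.021 to 0.17 for Fas, -0.079 to 0.21 for Sesn1, -0.50 to 0.18 for Rrm2b, -0.15 to 0.20 for Plk2, -0.26 to 0.029 for Ppm1d, -0.0082 to 0.23 for Btg2, -0.19 to 0.034 for Ddb2 and -0.034 to 0.11 for Mdm2. The cause was not tested. No paired analysis was possible because the labels give the samples of the genotypes different numbers. Members not well above background could not be measured, and a normexp offset of 50 exceeds the lowest signals measured.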

Other observations

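The remaining cell type markers give the setting of the pathway genes. All 5 endothelial markers had negative log2 fold changes (median -0.30), Tek, an endothelial receptor kinase, at an unadjusted limma p under 0.05, and the summed linear level was 12.2 to 20.6 in WT and 8.21 to 15.9 in Bmi1 null samples. Of 8 mesenchymal markers 5 were positive (median 0.21), with a summed level of 244 to 358 in WT and 287 to 510 in Bmi1 null samples. Col1a1 and Col1a2, the chains of type I collagen, had log2 fold changes of 0.98 and 0.43, and both had an unadjusted limma p under 0.05. Both lay in the brightest class, where the median of all genes was 0.57, and the other Col1a1 probes gave -0.10 and -0.02. All 4 tested erythroid markers were positive (median 0.38), none at an unadjusted p under 0.05, and their summed level was 20.9 to 45.9 in WT and 26.8 to 104 in Bmi1 null samples. The relation of these markers to the p53 pathway genes was not tested.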
